A study of Mus musculus with 12 samples.

Results

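miR-1224 and miR-1895 are 2 of the 650 miRNAs on a mouse miRNA array, and they were picked from it because their signal was higher after tunicamycin. mmu-miR-1224 and mmu-miR-1895, as the array calls them, were read from 4 of the 1857 probes, printed as 40 of the 13000 spots that carry miRNA probes on each array. The arrays held total RNA of C57BL/6 mouse embryonic fibroblasts, either wild type (labelled ATF6aWT) or knockout for ATF6a (labelled ATF6aKO). Cells of each genotype were left untreated or kept in medium with 2 ug/mL tunicamycin for 12 or 24 h, which gives 6 groups of 2 arrays. The labels describe the arrays of a group as independent experiments, and do not say how many embryos or cell lines they came from. No probe reads the Atf6 transcript, and the labels of genotype stand unchecked here.

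A miRNA is a short RNA that guides silencing proteins to messenger RNAs, mainly through its seed, the stretch near its 5′ end that pairs with the target. Most miRNAs are cut from a hairpin by Drosha and then by Dicer. A mirtron such as miR-1224 is instead a short intron that folds into the hairpin after splicing and skips the Drosha step. Tunicamycin blocks N-linked glycosylation, so that unfolded proteins gather in the endoplasmic reticulum. ATF6a is a membrane-bound sensor of that stress: it moves to the Golgi, is cleaved, and its freed part enters the nucleus as a transcription factor.

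Both miRNAs are rich in G and C, and their sequences are shown because the array reads a miRNA by hybridisation and because the seed sets what it could target. The sequences are those of RefSeq for build GRCm38.p6, written 5′ to 3′. Capitals mark the seed, bases 2 to 8, in mature miRNAs and the mature arms in hairpins. The array name miR-1224 carries no arm, so both arms are given, and the scanner files do not say which arm its probes match.
mmu-miR-1224-5p: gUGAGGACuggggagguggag
mmu-miR-1224-3p: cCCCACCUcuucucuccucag
mmu-miR-1895: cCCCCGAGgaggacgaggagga
Mir1224 hairpin: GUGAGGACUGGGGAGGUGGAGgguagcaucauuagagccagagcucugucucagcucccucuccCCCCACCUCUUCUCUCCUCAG
Mir1895 hairpin: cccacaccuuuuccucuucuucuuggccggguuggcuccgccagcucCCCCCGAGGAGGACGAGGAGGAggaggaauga

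miR-1224-5p has a GC content of 66.7%, miR-1224-3p of 61.9% and miR-1895 of 72.7%, against a median of 52.2% over the 1679 mature mouse miRNAs of the same table. None of the 3 seeds was shared with another listed mature miRNA. The longest run that miR-1224-5p and miR-1895 had in common was GAGGAC, of 6 bases, which 16 of the 1679 mature miRNAs (0.953%) contained. The Mir1224 hairpin has 85 bases, begins with GU and ends with AG, the ends of a spliced intron. Of 1005 hairpins in the table, 30 (2.99%) have both of these ends, and the Mir1895 hairpin of 79 bases does not.

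In GRCm38.p6 the hairpin Mir1224 lies on the plus strand at chr16:20604452-20604536, within the span of the gene Vwa5b2 on the same strand. The hairpin Mir1895 lies on the minus strand at chr3:134240505-134240583, within the span of Cxxc4, which runs on the plus strand. Alg3, which encodes a mannosyltransferase of the N-glycan assembly that tunicamycin blocks upstream, lies 922 bases from Mir1224 on the opposite strand. The table used here gives no exons, so the place of either hairpin within the gene that spans it is not given. The RefSeq promoter windows of the spanning genes, 2 for Vwa5b2 and 1 for Cxxc4, were searched on both strands. They held neither the ATF6 binding motif TGACGTG nor the endoplasmic reticulum stress element (CCAAT and CCACG with 9 bases between them). Cxxc4 runs opposite to Mir1895, so its window says nothing on the start of a transcript that holds Mir1895. Of all 32851 windows of the same length, 2.01% held the former and 0.119% the latter, and the search covers only these letters in these windows.

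The level of a miRNA is given as log2 of its processed signal divided by the array's 75th percentile, which was taken over 87 probes that cleared the background on each of the 12 arrays. A probe counts as well above background where the scanner software marked more than 50% of its spots so. An array had 85 to 171 such miRNAs, and 175 entered the tests. The untreated arrays had 160 to 170, the replicate 1 treated arrays 129 to 171 and the replicate 2 treated arrays 85 to 144. The number of arrays limits the precision. The 4 untreated arrays lay on one slide and the 8 treated arrays on the other, and effects of slide and treatment cannot be told apart. Each genotype also kept to its own row of the slides, so genotype and row position cannot be told apart. The fibroblast markers fixed for this check were well above background on all arrays for 6 of 8, with summed scaled signals of 33.1 to 40.0 on untreated and 17.6 to 26.6 on treated arrays. No marker of blood, epithelium, neuron, liver or endothelium was well above background on any array. Among pluripotent and muscle markers only miR-294 and miR-206 were so on any array, and the part of other cells in the results was not tested.

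miR-1224 was measured on every array by both of its probes. In untreated wild type cells its log2 level was -3.02 in replicate 1 and -3.04 in replicate 2. In untreated knockout cells it was -3.41 and -3.08. These 4 arrays were the lowest of the series for this miRNA. After 12 h of tunicamycin the level was -1.09 and -1.19 in wild type cells. The knockout arrays at 12 h read -0.59 and -1.38, on both sides of the wild type pair. After 24 h the wild type arrays read -0.87 and -0.55, and the knockout arrays read 0.92 and 0.74, above every other array. From lowest to highest the group means were -3.25 ± 0.24 in untreated knockout, -3.03 ± 0.011 in untreated wild type, -1.14 ± 0.069 in wild type at 12 h, -0.98 ± 0.56 in knockout at 12 h, -0.71 ± 0.23 in wild type at 24 h and 0.83 ± 0.13 in knockout at 24 h (SD, n = 2 arrays each). Neighbouring groups overlapped only between wild type and knockout at 12 h and between knockout at 12 h and wild type at 24 h.

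**Figure D1:**
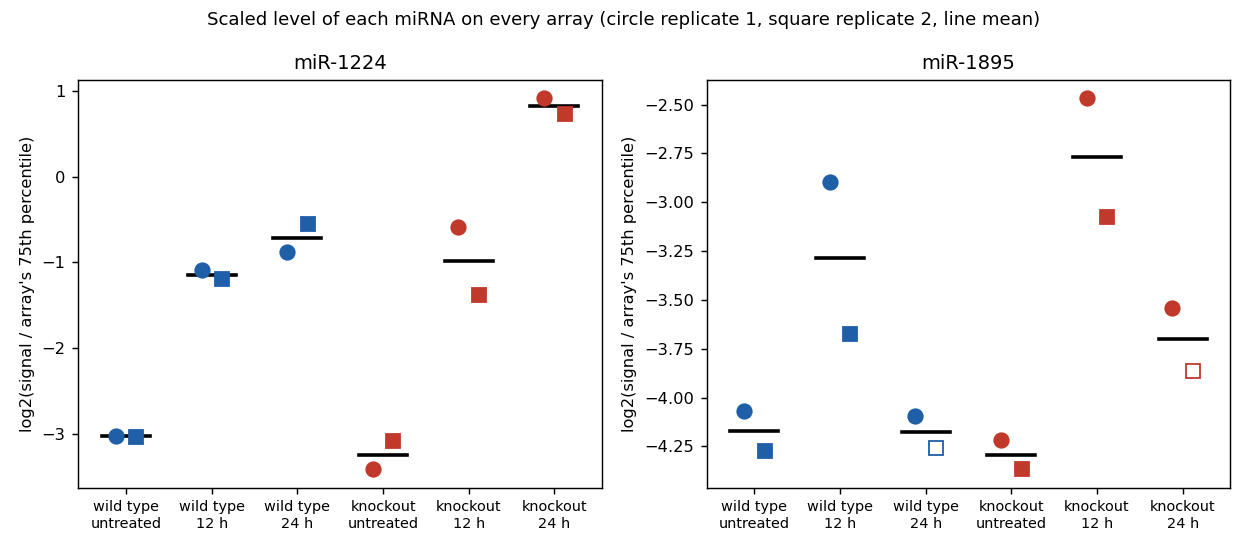
Log2 level relative to the array's 75th percentile (vertical axis) of miR-1224 (left) and miR-1895 (right) on every array, in 6 groups of 2 arrays (blue wild type, red knockout), with the group mean as a line. Open symbols mark arrays where no probe of the miRNA was well above background. miR-1224 was highest on the knockout arrays at 24 h (0.92 and 0.74), and miR-1895 was highest in both genotypes at 12 h.

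miR-1895 had a different time course. In untreated wild type cells its log2 level was -4.07 and -4.27, and in untreated knockout cells -4.22 and -4.37. At 12 h the wild type arrays read -2.90 and -3.68, and the knockout arrays -2.47 and -3.07. At 24 h the wild type arrays were back among the untreated ones, at -4.09 and -4.26, while the knockout arrays read -3.54 and -3.86. The group means, from the lowest, were -4.29 ± 0.10 in untreated knockout, -4.17 ± 0.12 in wild type at 24 h, -4.17 ± 0.14 in untreated wild type, -3.70 ± 0.23 in knockout at 24 h, -3.29 ± 0.55 in wild type at 12 h and -2.77 ± 0.43 in knockout at 12 h (SD, n = 2 arrays each). The 3 lowest groups overlapped as neighbours, and so did the 3 highest. No probe of miR-1895 was well above background on replicate 2 of either 24 h group, so the level at 24 h rests on 1 measured array per genotype. On replicate 2 of both 12 h groups, 1 of its 2 probes was well above background.

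The difference from untreated cells chose these miRNAs, so it is a description with no test. miR-1224 was higher than in untreated cells of its genotype by 1.89 ± 0.26 (SE) at 12 h and 2.32 ± 0.26 at 24 h in wild type, folds of 3.71 and 5.00. In the knockout the differences were 2.26 ± 0.26 and 4.08 ± 0.26, folds of 4.80 and 16.9. At 12 h miR-1224 ranked 13 of 175 in wild type and 9 in the knockout, and at 24 h it ranked 1 in each genotype. The treated and untreated arrays of miR-1224 did not overlap in any of the 4 comparisons. By the same fit, 6.29% and 7.43% of tested miRNAs were called higher in wild type at 12 and 24 h, and 2.86% and 2.29% in the knockout. Among all tested miRNAs, 18.9% were higher without overlap in wild type at 12 h, 19.4% in wild type at 24 h, 13.7% in the knockout at 12 h and 21.1% in the knockout at 24 h. miR-1895 differed from untreated cells by 0.89 ± 0.29 and 1.52 ± 0.29 at 12 h in wild type and knockout. At 24 h its differences were -0.0029 ± 0.29 and 0.59 ± 0.29, with overlap of the arrays in wild type only. Its ranks in wild type and knockout were 22 and 18 at 12 h and 65 and 20 at 24 h.

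Known RNAs added to the samples also read higher on the treated arrays. The array carries 4 probes for 2 labelling control RNAs, whose signal the scanner software uses as its labelling metric. Their mean log2 signal, unscaled, lay between 5.08 and 6.53 on the 4 untreated and between 6.998 and 8.24 on the 8 treated arrays, without overlap, a difference of 1.92. The software marked the labelling metric as in range on 0 of 4 untreated and 8 of 8 treated arrays. The hybridisation control RNAs differed by 1.63 in the same direction, with their metric in range on all 12 arrays. The unscaled signal of miR-1224 differed by 2.38, that of miR-1895 by 0.49, and the 75th percentile used for scaling by -0.26. The part of labelling in the differences between treated and untreated arrays was not tested.

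Set against the labelling control RNAs of its own array, miR-1224 lay at -0.83 in wild type and -0.65 in knockout in untreated replicate 1. In untreated replicate 2 it lay at 0.48 and 0.71. The untreated arrays therefore differed more between replicates than between genotypes on this scale. At 12 h it lay at -0.17 and -0.18 in wild type and at 0.079 and 0.11 in knockout, and at 24 h in wild type at -0.28 and -0.079, all within the untreated range. The knockout arrays at 24 h, at 1.66 and 1.93, lay above all others on this scale too. Scaled in this way, the difference of miR-1224 from untreated cells was -0.000188 ± 0.63 (SE) in wild type at 12 h, -0.0065 ± 0.63 in wild type at 24 h, 0.065 ± 0.63 in knockout at 12 h and 1.76 ± 0.63 in knockout at 24 h. miR-1895 was below untreated cells on this scale, by -1.01 and -2.33 in wild type and by -0.68 and -1.72 in the knockout at 12 and 24 h (SE 0.60). With no scaling, miR-1224 differed by 2.04, 1.71, 2.21 and 3.55 in the same order of groups as before.

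**Figure D2:**
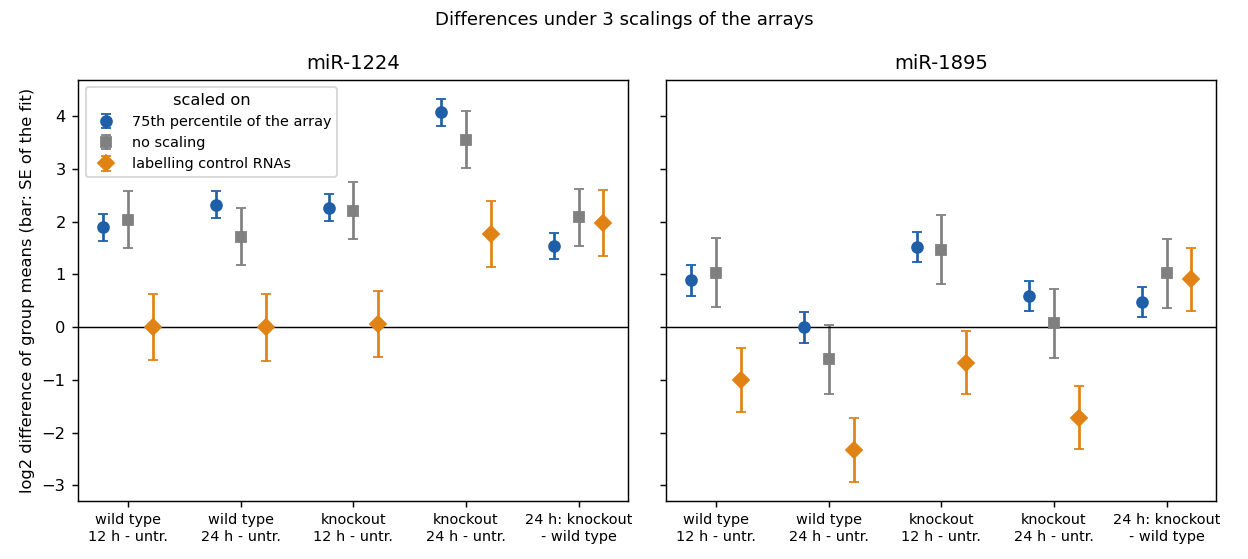
Log2 difference of group means, with the SE of the fit as bars, for miR-1224 (left) and miR-1895 (right) after scaling on the array's 75th percentile, with no scaling, or on the labelling control RNAs. The 4 differences from untreated cells change with the scaling, and 3 of them in miR-1224 lie near 0 on the labelling control RNAs only. At 24 h miR-1224 was higher in knockout than in wild type cells under each of the 3 scalings (1.54, 2.08 and 1.97). It was called under the first only (limma, adjusted p = 0.00935, 0.0947 and 0.189).

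Each miRNA was read by 2 probes, of 8 to 10 usable spots per array. Probe A_54_P4403 of miR-1224 had unscaled signals of 115 and 126 in untreated wild type and 150.1 and 135 in untreated knockout cells. It read 597 and 339.6 in wild type and 765 and 506 in knockout at 12 h. At 24 h it read 549 and 299.9 in wild type but 2258 and 1248 in knockout cells. The other probe, A_54_P4402, ran from 18.2 to 23.3 on untreated arrays and reached 370.4 and 194 in the knockout at 24 h. The knockout minus wild type difference at 24 h was 1.50 by the former probe and 1.57 by the latter, so the probes gave the same direction and like sizes. The spots of A_54_P4403 varied by 51.8% (coefficient of variation) on wild type 12 h replicate 1, against a median of 5.15% over the arrays.

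The probes of miR-1895 gave weaker signals relative to background. Probe A_54_P00004574 was well above background on 10 of 12 arrays and A_54_P00004590 on 8 of 12. The former read 26.8 to 43.3 on untreated arrays, 84.7 and 41.4 in wild type and 103 and 95.8 in knockout cells at 12 h, and 29.5 and 12.7 in wild type and 54.9 and 26.2 in knockout cells at 24 h. The lower value of each treated pair was that of replicate 2. From 12 to 24 h the probes differed by -0.86 and -0.92 in wild type and by -0.92 and -0.94 in the knockout, the same direction in all 4 cases. Spot variation reached 89.0% for A_54_P00004590.

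**Figure D3:**
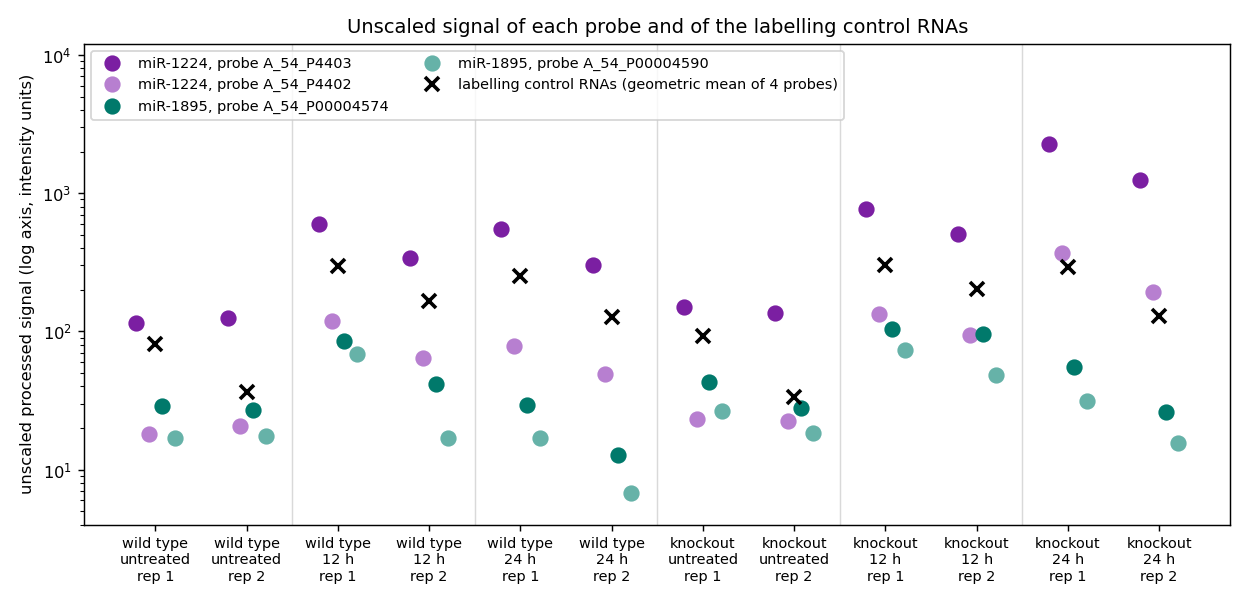
Unscaled processed signal (vertical log axis, intensity units) of the 2 probes of miR-1224 (purple) and the 2 of miR-1895 (green) on each of the 12 arrays, with the geometric mean of the 4 labelling control probes as crosses. The crosses stand higher on all 8 treated than on the 4 untreated arrays, and both miR-1224 probes peak in the knockout at 24 h, at 2258 and 1248 for A_54_P4403.

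The comparison of the genotypes at one time sets arrays of the same slide side by side, and asks whether the level differs between the genotypes. Genotype and row position on the slide cannot be told apart in it. These comparisons, and those below, share treated arrays with the contrast that chose the miRNAs, and earlier results of them were known. Their p-values are therefore not independent of that choice. At 24 h miR-1224 was higher in knockout than in wild type cells by 1.54 ± 0.26 (SE, n = 2 against 2 arrays), a 2.91-fold difference (limma, Benjamini-Hochberg adjusted p = 0.00935, 95% interval 0.94 to 2.14). It was the fourth largest difference of 175, in a comparison where 4.57% of tested miRNAs were called higher. The excess was 1.79 between the replicate 1 arrays, scanned in one run, and 1.28 between the replicate 2 arrays, scanned in another. The call was lost without wild type 24 h replicate 1 (1.37, limma adjusted p = 0.0509). With labelling control scaling the difference was 1.97 ± 0.63, with an adjusted p of 0.189 by limma, and without scaling it was 2.08 ± 0.54, with an adjusted p of 0.0947 by limma. The direction held under 30 of 30 alternative settings and the call under 19 of them. The call was lost under every other scaling between arrays, with normexp background correction and with the summed signal. All settings that kept it share the main scaling.

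At 12 h and in untreated cells the genotypes were not told apart in miR-1224. The knockout minus wild type difference was 0.16 ± 0.26 at 12 h (limma, adjusted p = 0.979, 95% interval -0.44 to 0.76), with 0.51 in one scanning run and -0.19 in the other. Here 3.43% of tested miRNAs were called higher. In untreated cells it was -0.22 ± 0.26 (limma, adjusted p = 0.658, 95% interval -0.82 to 0.38), or -0.39 and -0.041 within the runs. There 24.6% of tested miRNAs were called lower in the knockout. The difference from untreated cells was larger in the knockout than in wild type by 1.75 ± 0.36 (SE) at 24 h and by 0.37 ± 0.36 at 12 h. Both values are made of the differences that chose the miRNAs, and are descriptions with no test.

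From 12 to 24 h miR-1224 rose further in the knockout, by 1.81 ± 0.26 or 3.51-fold (limma, adjusted p = 0.00753, 95% interval 1.21 to 2.41). This was the largest of the 175 differences, in a comparison where 2.29% of tested miRNAs were called higher. The knockout arrays at 24 h are among those that chose miR-1224, so this p-value and rank are not independent of that choice. The rise was 1.50 in one scanning run and 2.12 in the other. Without knockout 24 h replicate 1 the value was 1.72 with a limma adjusted p of 0.081. The call held under 21 of 30 alternative settings and the direction under all 30. Every other scaling between arrays lost the call, as did the summed signal. Without knockout 12 h replicate 1 the comparison called 56 miRNAs in place of 4. Scaled on the hybridisation control RNAs, whose log2 signal ran from 9.22 to 11.9 over the treated arrays, the difference was 0.14. In wild type cells the change over the same time was 0.43 ± 0.26 (limma, adjusted p = 0.596, 95% interval -0.17 to 1.03), or 0.22 and 0.64 within the runs, where 1.14% were called higher. The difference between the genotypes in this time course, a contrast added after the data were seen, was 1.38 ± 0.36 and did not pass the correction (limma, adjusted p = 0.521, unadjusted p = 0.00616). No miRNA passed in it (0.0%), and 4 had an unadjusted p under 0.05. Leaving out 1 array at a time, this difference between the time courses ran from 0.98 to 1.78. The highest came without knockout 12 h replicate 1, which leaves 1 array in that group, and only there was the difference called. It stayed without a call under 29 of 30 alternative settings and kept its sign under all 30.

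**Figure D4:**
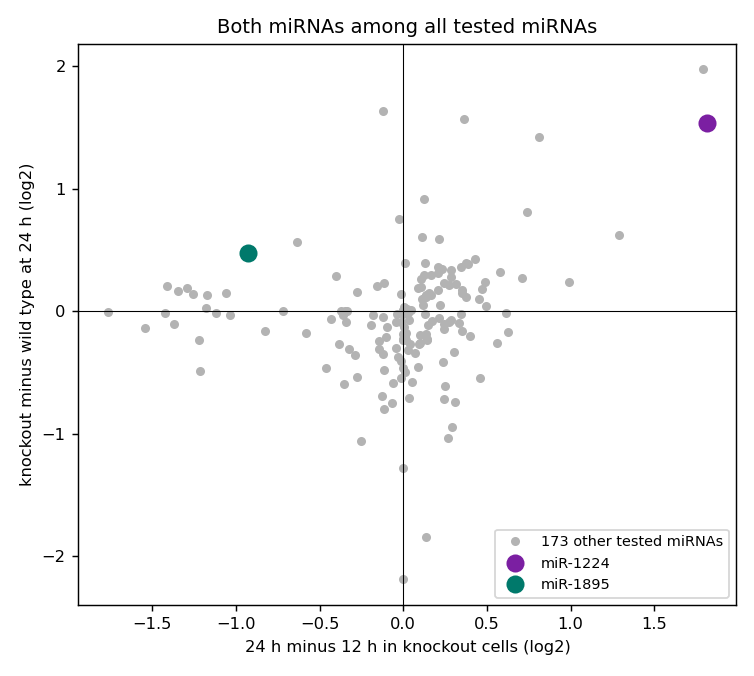
Log2 difference of each of the 175 tested miRNAs from 12 to 24 h in knockout cells (horizontal axis) and between knockout and wild type cells at 24 h (vertical axis). Both axes use the knockout arrays at 24 h. miR-1224 lies at the upper right (1.81 and 1.54), and miR-1895 at the left (-0.93 and 0.47).

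miR-1895 passed no test in the fit of the 6 group means. It was higher in knockout than in wild type cells by 0.52 ± 0.29 at 12 h (limma, adjusted p = 0.426, 95% interval -0.17 to 1.20), with 0.43 and 0.60 within the runs. At 24 h the excess was 0.47 ± 0.29 (limma, adjusted p = 0.454, 95% interval -0.21 to 1.16), with 0.55 in the run of the replicate 1 arrays. In the other run no probe of miR-1895 was well above background on either 24 h array, so the fitted 24 h values include arrays below background. In untreated cells the difference was -0.12 ± 0.29 (limma, adjusted p = 0.957, 95% interval -0.80 to 0.56), with -0.15 and -0.092 within the runs. Intervals of this width include 0 at each time, and at 12 and 24 h they also include a log2 difference of 1. From 12 to 24 h miR-1895 differed by -0.89 ± 0.29 in wild type (limma, adjusted p = 0.281, 95% interval -1.57 to -0.21) and by -0.93 ± 0.29 in the knockout (limma, adjusted p = 0.206, 95% interval -1.61 to -0.25). In the run of the replicate 1 arrays the differences were -1.20 and -1.07. In the knockout the difference was called in 4 alternative settings. It was -0.93 with the scanning run as a block (limma, adjusted p = 0.0301), -0.92 with the brightest probe (limma, adjusted p = 0.0441), -0.92 with probe A_54_P00004574 alone (limma, adjusted p = 0.0462) and -2.60 with scaling on the hybridisation control RNAs (limma, adjusted p = 0.0453). The arrays of 11.4% and 4.0% of tested miRNAs lay lower at 24 h without overlap in wild type and knockout, and so did those of miR-1895, with 1 of its 2 arrays at 24 h not well above background. The difference from untreated cells was larger in the knockout by 0.64 ± 0.41 (SE) at 12 h and by 0.59 ± 0.41 at 24 h, again as a description with no test.

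Over the 12 arrays the levels of miR-1224 and miR-1895 had a Pearson correlation of 0.43 and a Spearman correlation of 0.47. Such correlations are descriptions, since the arrays share slides, runs and scaling. Both miRNAs were chosen for their rise with tunicamycin, so a rise in miRNAs that correlate with them is not independent of that choice. Among 58 tested miRNAs well above background on all arrays, those most like miR-1224 were let-7b, miR-19b, miR-19a, let-7e and miR-20a. Their Pearson correlations were 0.79, 0.76, 0.73, 0.69 and 0.68, and their Spearman correlations 0.73, 0.66, 0.61, 0.63 and 0.71, in that order. let-7b and let-7e belong to the let-7 family, and the other 3 to the miR-17~92 cluster. For miR-1895, among 59, the most alike were miR-92a, miR-19a, miR-19b, miR-18a and miR-720. Their Pearson correlations were 0.68, 0.65, 0.62, 0.55 and 0.49, and their Spearman correlations 0.60, 0.68, 0.63, 0.36 and 0.20, in that order. The first 4 of these miRNAs also belong to the miR-17~92 cluster, and miR-720 is a name given to a piece of a transfer RNA. Over the 4 treated groups the differences of these miRNAs from untreated cells ran from 0.25 to 0.46 for let-7b, 0.20 to 0.87 for let-7e, 0.12 to 0.54 for miR-18a, 0.50 to 1.06 for miR-19a, 0.54 to 1.01 for miR-19b, 0.36 to 1.00 for miR-20a, 0.52 to 1.16 for miR-92a and -0.041 to 0.35 for miR-720.

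A check of GC content across the tested miRNAs is void. Of the 175 array names, 30 matched a mature sequence of RefSeq exactly, and most others lack the arm that RefSeq names carry, so that the sequence read could be either arm.

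The mirtron list held 4 names, of which miR-1224 and miR-877* were tested. In knockout against wild type cells at 24 h, 1 of these 2 was called higher by limma, against 4.57% of all tested miRNAs. That 1 was miR-1224, which was chosen for its high treated arrays, so the count says nothing on mirtrons as a list. The other, miR-877*, differed by 0.57 and was not called (limma, adjusted p = 1.0). From untreated cells miR-877* differed by 2.25 and 1.15 in wild type at 12 and 24 h and by 2.32 and 1.68 in the knockout, with limma adjusted p of 0.419 to 0.767. With miR-1224, which was chosen for this difference, the medians of the 2 were 2.07, 1.73, 2.29 and 2.88, against -0.27, -0.21, -0.087 and -0.00049 over all 175 in the same order.

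Of 4 tested miRNAs whose names belong to pieces of abundant RNAs, 1 was called higher in the knockout at 24 h, miR-689 at 0.62 (limma, adjusted p = 0.0411), against 4.57% of all tested miRNAs. The median of the 4 was -0.055 against -0.016 over all 175. miR-689 was also the 1 of the 4 called higher than in untreated cells, by 1.00 and 2.25 in wild type at 12 and 24 h and by 1.57 and 2.86 in the knockout (limma, adjusted p from 3.58e-05 to 0.0015). The shares of all tested miRNAs called higher there were 6.29%, 7.43%, 2.86% and 2.29%. The medians of the 4 were 0.53, -0.18, 0.72 and 0.0025. The labelling control RNAs differed by 1.92 between the same treated and untreated arrays, and their part in these values was not tested. Treated and untreated arrays lay on different slides, so slide and treatment cannot be told apart in these p-values. The list was also chosen with earlier results of these data known.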

How the data were processed

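RNA of 12 samples was read on single-colour miRNA arrays, with 2 arrays a group. Per the labels' protocols, 100 ng of total RNA was labelled with Cy3 for each. The submitters' processing notes name Agilent Feature Extraction 10.7.1.1 as the source of the deposited spot intensities. Per the file headers these have the background subtracted, are linear and are not scaled between arrays. The authors' deposited series table holds log2 values, and all 2034 equalled log2 of the software's summed signal within 0.01, with array medians of 5.70 to 8.23.

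Of 13715 spots per array, 715 control spots were left out, as were 5611 spots flagged as outliers over all arrays. No spot was saturated. Spots were averaged per probe and divided by the array's 75th percentile over 87 probes. Values under 0.0309 were raised to it before taking log2. That floor is the middle of the arrays' lowest scaled signals well above background. A probe was used where both arrays of 1 or more groups had it well above background, and used probes were averaged per miRNA, which left 306 probes and 175 miRNAs. The 6 group means were fitted with limma 3.58.1 (R 4.3.3), with 6 residual degrees of freedom and 1.16 from the prior. Adjusted p-values are Benjamini-Hochberg values over the 175 miRNAs of a comparison, with a threshold of 0.05. Intervals are 95% intervals of this fit, not adjusted for the number of miRNAs.

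miR-1224 and miR-1895, the lists of mirtrons, pieces of abundant RNAs and cell type markers, and the tests were chosen with earlier results of these data known. The differences from untreated cells chose both miRNAs and were not tested. The differences between the genotypes in them were planned as tests and are given without one, since they are made of the same values. A planned list of GC-rich miRNAs was not used, because few array names matched a mature sequence exactly. The miRNAs named beside them were the 5 most correlated with each, among miRNAs well above background on all arrays, and list members where a count was 5 or fewer. Tested on simulated data for the genotypes at 24 h over 175 features, the fit recovered 37.2% of log2 changes of 0.5, 73% of 1 and 87.6% of 2, with a mean of 0.94 false calls. The simulated noise was independent between arrays, whereas same-numbered treated arrays shared deviations, so these rates describe the simulation only.

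Alternatives covered the scaling, background correction, filter, floor, probe rule, blocks, samples in the fit and single arrays left out. The normexp correction used median spot signals, because no mean signal column was used here. The labels call the arrays of a group independent experiments but name no culture or animal, and p-values measure the spread between these arrays.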

Additional observations from a re-analysis of the deposited data

Results flagged for a closer look

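The labelling control RNAs, which are not miRNAs and lie outside the main scaling, had a log2 signal higher by 1.92 on the 8 treated than on the 4 untreated arrays, with no overlap. Their signal lies on the same slides as the treatment, so the slide, the labelling and the treatment cannot be told apart.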

How the results depend on the processing

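Settings were changed one at a time, except that the deposited table holds summed signals that are also unscaled, and that scaling on all probes brings its own floor. The higher level of miR-1224 in the knockout at 24 h and its rise from 12 to 24 h there kept their sign under 30 of 30 alternatives each. Their calls held under 19 and 21 of the 30, with limma adjusted p from 0.000919 and 0.00054 up to 1. Neither call held under any other scaling between arrays. No cause of a lost or gained call was tested. The scalings on control RNAs, no scaling and the contrast between the time courses were chosen after seeing the data. Scaled on all probes, miR-1224 changed sign to 0.23 between untreated genotypes, -0.12 between genotypes at 12 h and -0.35 between responses at 12 h. Calls at 1.0997 between genotypes at 24 h and 2.46 over time in knockout were lost for miR-1224. Values moved to 0.87 between responses at 24 h, 1.22 from untreated wild type at 12 h, 0.87 from untreated knockout at 12 h and 3.33 from untreated knockout at 24 h for miR-1224. Signs turned to 0.33 between untreated genotypes, -0.051 between genotypes at 24 h, -0.15 between responses at 12 h, -0.38 between responses at 24 h, 0.31 from untreated wild type at 24 h and -0.068 from untreated knockout at 24 h for miR-1895. Values moved to 0.49 from untreated wild type at 12 h and 0.34 from untreated knockout at 12 h for miR-1895. With quantile normalization, miR-1224 changed sign to 0.043 between untreated genotypes, -0.076 between genotypes at 12 h and -0.12 between responses at 12 h. Calls at 1.37 between genotypes at 24 h and 2.16 over time in knockout were lost for miR-1224. Values moved to 1.33 between responses at 24 h, 1.50 from untreated wild type at 12 h, 1.38 from untreated knockout at 12 h and 3.53 from untreated knockout at 24 h for miR-1224. Signs turned to 0.24 between untreated genotypes for miR-1895. Values moved to 0.16 between responses at 12 h, 0.20 between responses at 24 h, 0.32 from untreated wild type at 12 h, 0.48 from untreated knockout at 12 h and 0.24 from untreated knockout at 24 h for miR-1895. In the authors' deposited table, miR-1224 changed sign to 0.25 between untreated genotypes and -0.18 over time in wild type. Calls at 2.05 between genotypes at 24 h and 1.40 over time in knockout were lost for miR-1224. Values moved to 1.77 from untreated wild type at 24 h and 3.57 from untreated knockout at 24 h for miR-1224. Signs turned to 0.34 between untreated genotypes, -0.33 between responses at 24 h and -0.25 from untreated knockout at 24 h for miR-1895. Values moved to 1.21 from untreated knockout at 12 h for miR-1895. Scaled on labelling controls, miR-1224 changed sign to 0.20 between untreated genotypes, -0.0063 over time in wild type, -0.000188 from untreated wild type at 12 h and -0.0065 from untreated wild type at 24 h. Calls at 1.97 between genotypes at 24 h and 1.70 over time in knockout were lost for miR-1224. Values moved to 0.065 between responses at 12 h, 0.065 from untreated knockout at 12 h and 1.76 from untreated knockout at 24 h for miR-1224. Signs turned to 0.30 between untreated genotypes, -1.01 from untreated wild type at 12 h, -0.68 from untreated knockout at 12 h and -1.72 from untreated knockout at 24 h for miR-1895. Values moved to -2.33 from untreated wild type at 24 h for miR-1895. Scaled on hybridisation controls, miR-1224 changed sign to 0.44 between untreated genotypes, -0.55 over time in wild type and -0.068 from untreated wild type at 24 h. Calls at 1.88 between genotypes at 24 h and 0.14 over time in knockout were lost for miR-1224. Values moved to 0.74 between responses at 12 h, 1.44 between responses at 24 h, 0.48 from untreated wild type at 12 h, 1.23 from untreated knockout at 12 h and 1.37 from untreated knockout at 24 h for miR-1224. Signs turned to 0.53 between untreated genotypes, -0.52 from untreated wild type at 12 h and -2.12 from untreated knockout at 24 h for miR-1895. A call came at -2.60 over time in knockout for miR-1895. Values moved to 1.01 between responses at 12 h, 0.28 between responses at 24 h, -2.39 from untreated wild type at 24 h and 0.48 from untreated knockout at 12 h for miR-1895. Without scaling, miR-1224 changed sign to 0.24 between untreated genotypes and -0.32 over time in wild type. Calls at 2.08 between genotypes at 24 h and 1.34 over time in knockout were lost for miR-1224. Values moved to 1.71 from untreated wild type at 24 h and 3.55 from untreated knockout at 24 h for miR-1224. Signs turned to 0.34 between untreated genotypes for miR-1895. Values moved to -0.61 from untreated wild type at 24 h and 0.070 from untreated knockout at 24 h for miR-1895. With normexp background correction, miR-1224 lost the call at 1.20 between genotypes at 24 h. Values moved to 1.09 from untreated wild type at 12 h, 1.49 from untreated wild type at 24 h, 1.54 from untreated knockout at 12 h and 3.01 from untreated knockout at 24 h for miR-1224. Signs turned to -0.24 between genotypes at 24 h, 0.082 over time in wild type and 0.43 from untreated wild type at 24 h for miR-1895. Values moved to 0.11 between responses at 24 h, 0.35 from untreated wild type at 12 h and 0.82 from untreated knockout at 12 h for miR-1895. With the summed signal, miR-1224 lost the call at 1.51 between genotypes at 24 h and 1.93 over time in knockout. Values moved to 1.51 from untreated wild type at 12 h, 2.00 from untreated wild type at 24 h and 1.89 from untreated knockout at 12 h for miR-1224. Signs turned to -0.000313 from untreated knockout at 24 h for miR-1895. Values moved to 1.20 between responses at 24 h, 0.39 from untreated wild type at 12 h, -1.20 from untreated wild type at 24 h and 0.93 from untreated knockout at 12 h for miR-1895. Without a filter on dim probes, miR-1224 lost the call at 1.54 between genotypes at 24 h. With only the groups compared, miR-1224 lost the call at 1.54 between genotypes at 24 h and 1.81 over time in knockout. With the floor doubled, miR-1224 moved to 1.99 from untreated knockout at 12 h and 3.80 from untreated knockout at 24 h. Values moved to 1.21 from untreated knockout at 12 h for miR-1895. With the brightest probe, miR-1895 gained a call at -0.92 over time in knockout. With the scanning run as a block, miR-1895 gained a call at -0.93 over time in knockout. With probe A_54_P00004574 alone, miR-1895 gained a call at -0.92 over time in knockout. Without knockout 12 h replicate 1, miR-1224 gained a call at 1.78 between the time courses. Leaving out 1 array at a time gave a range for each value. For miR-1224 they ran from -0.38 to -0.049 between untreated genotypes, -0.24 to 0.55 between genotypes at 12 h, 1.37 to 1.70 between genotypes at 24 h, 0.27 to 0.60 over time in wild type, 1.42 to 2.21 over time in knockout, -0.027 to 0.77 between responses at 12 h, 1.59 to 1.92 between responses at 24 h, 1.84 to 1.94 from untreated wild type at 12 h, 2.16 to 2.49 from untreated wild type at 24 h, 1.86 to 2.66 from untreated knockout at 12 h, 3.91 to 4.24 from untreated knockout at 24 h and 0.98 to 1.78 between the time courses. For miR-1895 they ran from -0.22 to -0.018 between untreated genotypes, 0.13 to 0.90 between genotypes at 12 h, 0.31 to 0.64 between genotypes at 24 h, -1.28 to -0.50 over time in wild type, -1.23 to -0.63 over time in knockout, 0.25 to 1.03 between responses at 12 h, 0.43 to 0.76 between responses at 24 h, 0.50 to 1.28 from untreated wild type at 12 h, -0.11 to 0.10 from untreated wild type at 24 h, 1.22 to 1.82 from untreated knockout at 12 h and 0.43 to 0.75 from untreated knockout at 24 h. The number of miRNAs called, with its range over the alternatives, was 49 (0 to 95) between untreated genotypes, 13 (0 to 35) between genotypes at 12 h, 17 (0 to 29) between genotypes at 24 h, 2 (0 to 7) over time in wild type, 4 (0 to 56) over time in knockout, 17 (0 to 34) between responses at 12 h, 23 (0 to 45) between responses at 24 h, 78 (0 to 140) from untreated wild type at 12 h, 72 (0 to 151) from untreated wild type at 24 h, 30 (0 to 149) from untreated knockout at 12 h, 18 (0 to 155) from untreated knockout at 24 h and 0 (0 to 8) between the time courses.

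With the replicate number as a block, miR-1224 differed by 1.54 between genotypes at 24 h (limma, adjusted p = 0.0202) and by 1.81 over time in the knockout (0.0184), and the block changed no other call of either miRNA. Same-numbered arrays shared a scanning run within a slide. Their deviations from the group means correlated at 0.82 to 0.94 between treated groups and 0.74 between the untreated groups. Between treated and untreated groups the correlations were -0.66 to -0.45, so the numbers were not taken to pair samples across the slides. The main fit has no block, and treats arrays that share deviations within a slide as independent. The run as a block gives no treated against untreated value, and probes well above background on all arrays leave no value for miR-1895. The probes of miR-1895 were well above background on 10 and 8 of 12 arrays.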

Other observations

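The array also carries a control probe set named hur_4, which was looked at after the data were seen. Relative to the array's 75th percentile, its log2 level ran from 0.52 to 0.83 in untreated wild type, 0.50 to 0.86 in untreated knockout, 1.68 to 2.58 in wild type at 12 h, 1.15 to 2.42 in knockout at 12 h, 1.03 to 1.17 in wild type at 24 h and 0.67 to 1.16 in knockout at 24 h. Its group mean was highest at 12 h in both genotypes, as that of miR-1895 was. Another control probe set, hur_2, went the other way between treated and untreated arrays. Unscaled, treated minus untreated was 0.55 in log2 for hur_4 and -0.22 for hur_2. Over the 12 arrays the Pearson correlation of hur_4 was 0.82 with miR-1895 and 0.35 with miR-1224. The arrays share slides, runs and scaling, and this is a description with no test.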
